A study of Mus musculus with 14 samples.

Results

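The 10 imprinted genes described here, of 24833 genes in the count table, were chosen by name: H19, Dlk1, Meg3, Ndn, Grb10, Plagl1, Peg3, Igf2r, Mest and Gnas. They were read in hematopoietic stem cell-enriched bone marrow cells, sorted as SLAM cells: LSK cells (negative for lineage markers, positive for Sca-1 and Kit) that lack Flk2 and CD48 and carry CD150. All mice were C57BL/6. They were injected intraperitoneally with PBS (buffered saline) or with IL-1β, a cytokine released in inflammation, over 1 or 20 days, and the daily dose of IL-1β was 0.5 µg for each mouse. There were 3 libraries of PBS for 1 day, 3 of IL-1β for 1 day, 4 of PBS for 20 days and 4 of IL-1β for 20 days, each from cells pooled over 3 to 5 mice. The age of the mice is not given in the sources used here. All 10 genes had counts, and 9 passed the filter on low counts; H19 did not.

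An imprinted gene is expressed mainly from the copy inherited from 1 parent, under the control of DNA methylation laid down in the germ line. Many imprinted genes act on growth: some hold back insulin-like growth factor (IGF) signalling, others encode growth-restraining or growth-promoting factors, and several have been linked to the quiescence of blood stem cells. RNA counts like these do not tell the parental copies apart.

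Totals ran from 21654896 to 29441947 counts per library. Levels are given as CPM, counts scaled to a common library total and adjusted by TMM factors. Without TMM factors, 3 counts in 1 library amount to 0.102 to 0.139 CPM. The sums over marker lists, and the ranges of marker genes over all 14 libraries, are also CPM without TMM factors. Kit, Ly6a (Sca-1) and Slamf1 (CD150) were detected in every library, and so were Flt3 (Flk2) at 39.9 to 145 CPM and Cd48 at 2.81 to 10 CPM, whose proteins the gate excludes. Of 7 sort marker genes none was called at 1 day by edgeR (3 at an unadjusted p under 0.05, 2 by DESeq2), and 3 rose at 20 days of IL-1β. Over all tested genes 4.35% were called at 1 day, and 3.94% were called higher at 20 days. Flt3 rose from 52.9 ± 8.65 to 110 ± 29.6 CPM and Cd48 from 3.13 ± 0.365 to 6.70 ± 2.42 CPM (SD, n = 4 each; adjusted p = 0.000768 and 0.0197), and Slamf1 rose by 0.81 ± 0.12 on the log2 scale (0.000925). At 1 day Cd48 measured 4.58 ± 1.24 CPM with PBS and 9.16 ± 0.858 CPM with IL-1β (SD, n = 3 each), in groups that did not overlap. Cd34 was also higher without overlap (381 to 426 against 466 to 490 CPM). Procr was lower without overlap (74.2 to 82.8 against 55.8 to 66.5 CPM), and the groups of the other sort marker genes overlapped. The part of the sort marker genes in the values of the members at either duration was not tested. A set of 10 neutrophil genes summed to 2420 CPM in replicate 3 of IL-1β for 20 days and to 1.99 to 14.9 CPM in the other 13 libraries. The library titles form 4 naming sets with equal numbers of both treatments, E060216 and 10k at 1 day, and E061316 and an untagged set at 20 days. What the tags mean is not stated, and 1-day replicate 3 is the 10k library of its group. Fold changes are log2 values of IL-1β over PBS ± an approximate SE, from edgeR's quasi-likelihood test with a term for the naming set. A gene is called where its Benjamini-Hochberg adjusted p over 15466 tested genes is under 0.05.

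In PBS, the 10 genes spanned a wide range of levels. Per kilobase of exon, Grb10, an adaptor that inhibits insulin and IGF receptors, was highest at 20.8 ± 3.01 CPM per kb (SD, n = 3) in the 1-day PBS libraries. Ndn (necdin), a growth suppressor of the MAGE family, followed at 15.8 ± 0.989 CPM per kb (n = 3). Igf2r, the receptor that takes up IGF2 for degradation, came next at 2.35 ± 0.523 CPM per kb (n = 3). The ranges over libraries of these 3 genes did not overlap those of their neighbours in that order. The length is the union of a gene's GENCODE M21 exons, 9089 bases for Grb10 and 3694 for Ndn. The RefSeq start site of Ndn, chr7:62348277, lies inside its GENCODE span. A shorter Ndn would stand higher per kilobase, so the order of Grb10 and Ndn rests on the length used.

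Gnas (0.717 ± 0.0890), which encodes the stimulatory G protein alpha subunit, and Dlk1 (0.617 ± 0.109) followed in CPM per kb (n = 3 each), with overlapping ranges. Exons of Gnas overlap genes on the opposite strand, and the counting rule for overlaps is not given, so its place in this order is uncertain. The long non-coding RNA Meg3 followed at 0.283 ± 0.279 CPM per kb (n = 3). Mest, Plagl1, Peg3 and H19 lay between 0.180 and 0.0638 CPM per kb, each overlapping its neighbour. In PBS for 20 days the order of the means was the same, but Grb10 at 18.9 ± 4.51 CPM per kb (n = 4) overlapped Ndn at 16.3 ± 0.781 (n = 4).

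No member differed between PBS for 20 days and PBS for 1 day by edgeR's test (adjusted p = 0.999 for each of the 9), and none did by DESeq2 or at an unadjusted p under 0.05. Over all genes this comparison called 0 of 15466 (0%), with 675 at an unadjusted p under 0.05 and 10 called by DESeq2. Here duration and naming set cannot be told apart.

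**Figure D1:**
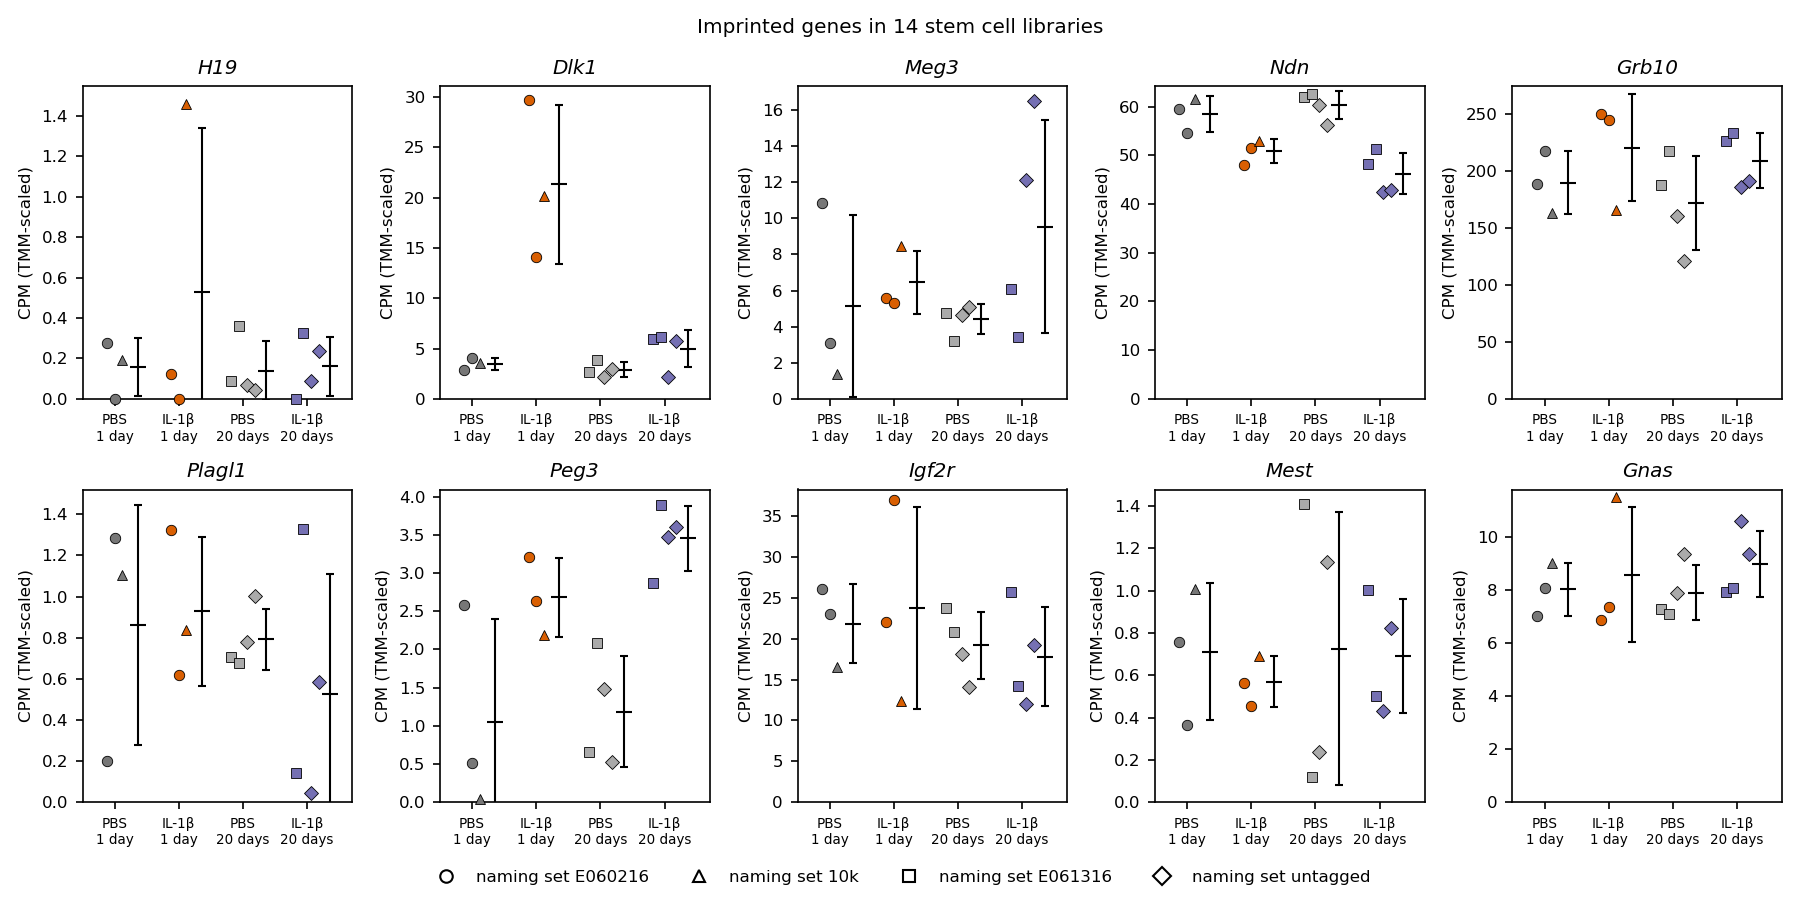
Each panel plots 1 gene in CPM (linear axis from 0) for the 14 libraries in the 4 groups, with point shapes for the naming sets of the titles and a mean ± SD beside each group (bars are cut at 0). Dlk1 in the 3 IL-1β libraries at 1 day lies between 14.1 and 29.7 CPM, above the 7 PBS libraries at 2.13 to 4.04 CPM, while Ndn lies lower with IL-1β at both durations.

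Of the 9 tested members, 1 was called at 1 day of IL-1β, higher (11.1%), where 4.35% of all tested genes were called in either direction of which 2.52% were higher and 1.83% lower. At 20 days 1 of 9 was called, lower, against 7.46% of all genes in either direction, 3.94% higher and 3.52% lower. The members' median log2 fold change was 0.12 at 1 day and 0.18 at 20 days, beside -0.01 and -0.00031 over all tested genes. The groups did not overlap for 2 of 9 members at 1 day (Dlk1 higher, Ndn lower) and for 2 of 9 at 20 days (Ndn lower, Peg3 higher), beside 17.7% of all genes at 1 day (8.75% higher, 8.91% lower) and 10.4% at 20 days (5.39% higher, 4.99% lower). With 9 genes, these shares say little about the members as a set, and the genes are described singly.

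Dlk1 encodes a transmembrane protein related to Notch ligands and is expressed from the paternal copy. It lies at chr12:109452823-109463336 on the plus strand (GRCm38, GENCODE M21) and was the member with the largest called change. It measured 2.83, 4.04 and 3.61 CPM in the PBS libraries for 1 day (replicates 1 to 3) and 29.7, 14.1 and 20.2 CPM in the IL-1β libraries. These rest on 71, 110 and 75 counts against 740, 341 and 552. Every IL-1β library stood above every PBS library.

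Dlk1 rose 6.10-fold at 1 day, a log2 fold change of 2.61 ± 0.35 (95% interval 1.81 to 3.41, adjusted p = 0.000803, higher in 3 of 3 libraries). The call held in all 21 alternative analyses run, with log2 fold changes from 2.24 to 2.85. Within the naming sets the difference was 2.43 in E060216 (2 against 2) and 2.33 in 10k (1 against 1), on the scale of log2 of CPM plus 0.5. On bulk RNA such as this, a larger share of cells with the transcript and more transcript per cell cannot be told apart.

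At 20 days Dlk1 measured 2.65, 3.88, 2.13 and 2.93 CPM in the PBS libraries (replicates 1 to 4) and 5.96, 6.11, 2.21 and 5.71 CPM in the IL-1β libraries. Replicates 1, 2 and 4 of IL-1β lay above all 4 PBS libraries, and replicate 3 lay among them. The log2 fold change was 0.77 ± 0.30 (95% interval 0.09 to 1.46, adjusted p = 0.148), which did not pass the threshold. Replicate 3 is also the library with the high neutrophil sum. Without it the log2 fold change was 0.99, with an adjusted p of 0.0506, still outside the threshold, and the part of the neutrophil RNA in the low value was not tested.

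The 20-day effect on Dlk1 was smaller than the 1-day effect by 1.83 ± 0.45 on the log2 scale (a difference of -1.83, 95% interval -2.87 to -0.80, adjusted p = 0.0498), in a test that called 2.14% of all genes, and 0.989% with a lower effect at 20 days. This call sat at the threshold. It held with RLE factors, with DESeq2 and without the filter, and was lost with upper-quartile factors (adjusted p = 0.051) and without the naming set term (0.143). It was lost in each of the 14 fits that left out 1 library, with adjusted p from 0.0509 to 0.18 and differences from -2.12 to -1.48. No other member was called in this comparison.

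**Figure D2:**
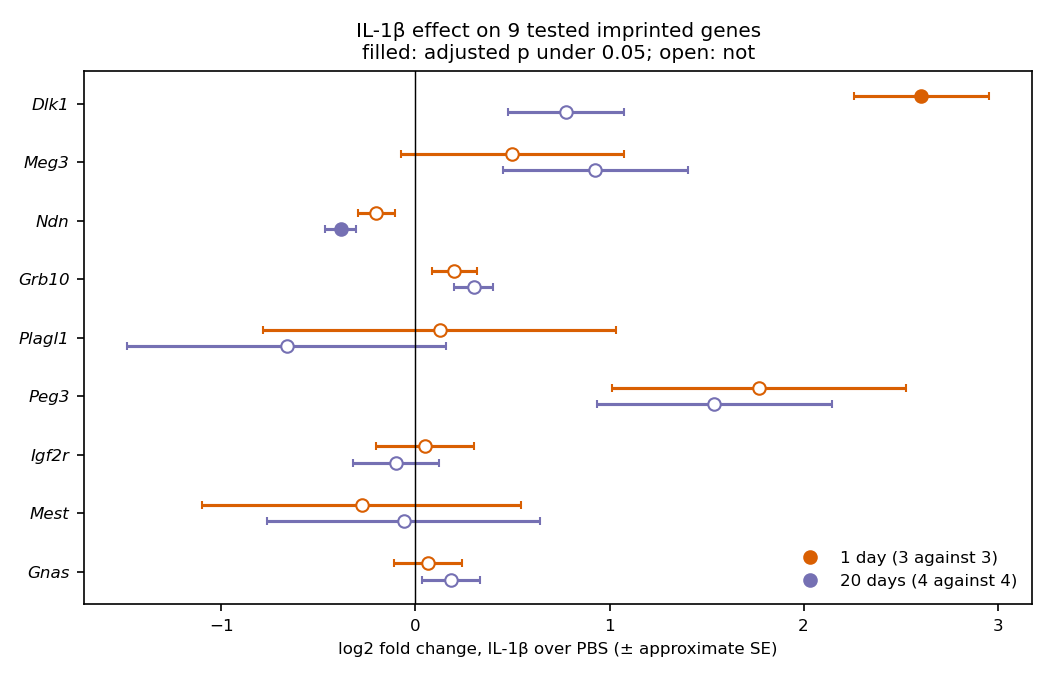
Points give the log2 fold change of IL-1β over PBS (horizontal axis) with an approximate SE for the 9 tested members at 1 day (3 against 3 libraries) and 20 days (4 against 4), and filled points passed the adjusted threshold. Only Dlk1 at 1 day (2.61) and Ndn at 20 days (-0.39) are filled, and Plagl1, Peg3 and Mest have the widest bars.

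The 3 genes whose profile over the 14 libraries was most like that of Dlk1, by the mean absolute difference of z-scores of log2 CPM among 13218 genes, were Rad54l (0.276), Bub1b (0.288) and Timeless (0.295). Rad54l encodes a recombination repair protein, Bub1b a spindle checkpoint kinase and Timeless a replication fork protein. Their own log2 fold changes at 1 day were 0.87, 0.96 and 0.67, smaller than that of Dlk1, since the measure compares shapes and not sizes. A likeness over these 14 libraries takes in the treatment difference that they share.

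Meg3 and Rian are long non-coding RNAs expressed from the maternal copy of the locus that holds Dlk1. Meg3 lies at chr12:109541001-109571726, 77664 bases beyond the end of Dlk1, and Rian, not a member but from the list of neighbouring imprinted genes, lies at chr12:109603940-109661716, 32213 bases beyond Meg3. All 3 are on the plus strand.

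Meg3 measured 10.9, 3.12 and 1.39 CPM in the 1-day PBS libraries and 5.59, 5.32 and 8.47 CPM in the IL-1β libraries. The PBS values spanned those of the IL-1β group. The log2 fold change was 0.50 ± 0.58 (adjusted p = 0.719), and it ranged from -0.35 to 1.50 with 1 library left out. It turned negative without replicate 3 of IL-1β (-0.35) or replicate 3 of PBS (-0.35), and was highest without replicate 1 of PBS. Within the naming sets the log2 difference was -0.11 in E060216 and 2.24 in 10k.

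At 20 days Meg3 measured 4.77, 3.20, 4.63 and 5.07 CPM with PBS and 6.10, 3.42, 12.1 and 16.5 CPM with IL-1β. Replicates 3 and 4 of IL-1β, the untagged set, stood above all PBS libraries, and replicate 2 did not. The log2 fold change was 0.93 ± 0.48 (95% interval -0.17 to 2.02, adjusted p = 0.295), with 0.20 within E061316 and 1.45 within the untagged set.

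Rian was low throughout. It measured 0.221, 0.280, 0.135 and 0.131 CPM in the 20-day PBS libraries, from 5, 7, 4 and 3 counts, and 2.19, 0.683, 1.26 and 1.68 CPM in the IL-1β libraries, from 61, 19, 29 and 43 counts. The 2 groups did not overlap. Rian rose at 20 days by a log2 fold change of 2.93 ± 0.59 (adjusted p = 0.00763), and the call held in all 21 alternative analyses.

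At 1 day Rian measured 0.676, 0.587 and 0.240 CPM with PBS and 3.01, 0.866 and 1.21 CPM with IL-1β. The groups did not overlap here either, but the log2 fold change of 1.82 ± 0.63 did not pass the threshold (adjusted p = 0.123). Dlk1, on the paternal copy, was called at 1 day and Rian, on the maternal copy, at 20 days. For Rian the difference between the durations was not called in any direction, so its change cannot be placed at 1 duration over the other.

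**Figure D3:**
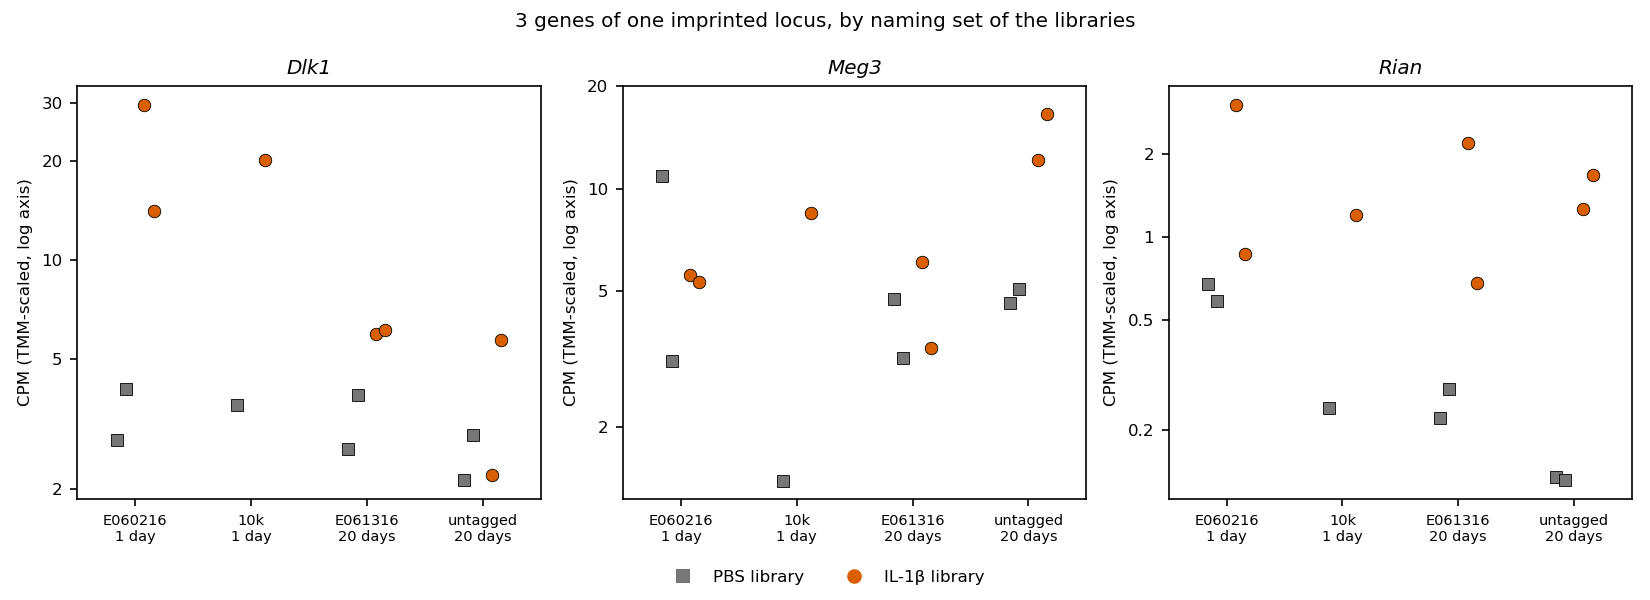
CPM on a log axis for Dlk1, Meg3 and Rian in each library, set out by naming set and duration, with grey squares for PBS and orange circles for IL-1β. Dlk1 is highest in the 3 IL-1β libraries at 1 day (14.1 to 29.7 CPM), Meg3 in the 2 untagged IL-1β libraries at 20 days (12.1 and 16.5 CPM), and each Rian IL-1β value lies above the PBS values of its set.

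A list of 14 stromal and endothelial genes, cells that can also express Meg3, Rian or Dlk1, summed to 260 to 377 CPM with PBS and 281 to 301 CPM with IL-1β at 1 day. At 20 days it summed to 268 to 400 CPM with PBS and 398 to 565 CPM with IL-1β. Much of each sum came from Vwf (140 to 327 CPM) and Pecam1 (42.4 to 142 CPM), which stem cells also express. Of the 14 genes, 6 had no counts in some libraries: Col3a1 in 12 of 14, Bglap in 10, Lepr and Pdgfra in 8 each, Cdh5 in 5 and Col1a1 in 2. Others were present in every library, among them Col1a2 (12.2 to 33 CPM), Pdgfrb (5.13 to 30.1 CPM) and Alpl (0.57 to 6.46 CPM).

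At 1 day 1 of the 10 tested genes of this list was called, Col1a2, which fell by 0.79 ± 0.15 on the log2 scale (adjusted p = 0.00856). Alpl measured 1.96 ± 0.700 CPM with PBS and 5.17 ± 1.33 CPM with IL-1β (SD, n = 3 each), in groups that did not overlap (adjusted p = 0.0953). At 20 days 2 rose, Pecam1 by 1.17 ± 0.13 (adjusted p = 0.000157) and Pdgfrb by 0.86 ± 0.23 (0.0369). Over all tested genes 4.35% were called at 1 day and 7.46% at 20 days. The part of stromal and endothelial cells in the Dlk1 values at 1 day and in the Rian, Meg3 and Peg3 values at 20 days was not tested.

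Promoter windows of 250 bases before to 50 bases after the RefSeq start site (GRCm38.p6) were matched for 9 of the 10 members, with 16 windows. The 4 below are those of the called members, Dlk1 and Ndn, and of Meg3 and Peg3, which hold the full cyclic AMP response element. Capitals mark matches on either strand to TATAAA (a core promoter box), TGACG (the core of that element, which lies within the full TGACGTCA), GGGGCCCC, CACGTG (an E-box), GGGCGG (a GC box) and the NF-κB consensus.
Dlk1, chr12:109452573-109452872, plus strand: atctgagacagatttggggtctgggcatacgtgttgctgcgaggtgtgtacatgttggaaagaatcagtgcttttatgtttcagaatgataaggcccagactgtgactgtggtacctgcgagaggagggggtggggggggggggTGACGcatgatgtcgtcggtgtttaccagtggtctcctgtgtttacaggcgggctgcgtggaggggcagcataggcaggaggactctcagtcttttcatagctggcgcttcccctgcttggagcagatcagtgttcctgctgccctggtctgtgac
Meg3, chr12:109540746-109541045, plus strand: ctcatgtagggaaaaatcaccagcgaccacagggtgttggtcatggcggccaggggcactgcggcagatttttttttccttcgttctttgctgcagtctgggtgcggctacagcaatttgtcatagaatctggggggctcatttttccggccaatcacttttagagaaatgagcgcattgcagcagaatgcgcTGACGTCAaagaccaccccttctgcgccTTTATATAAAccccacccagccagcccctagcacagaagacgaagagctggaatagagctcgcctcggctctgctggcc
Ndn, chr7:62348027-62348326, plus strand: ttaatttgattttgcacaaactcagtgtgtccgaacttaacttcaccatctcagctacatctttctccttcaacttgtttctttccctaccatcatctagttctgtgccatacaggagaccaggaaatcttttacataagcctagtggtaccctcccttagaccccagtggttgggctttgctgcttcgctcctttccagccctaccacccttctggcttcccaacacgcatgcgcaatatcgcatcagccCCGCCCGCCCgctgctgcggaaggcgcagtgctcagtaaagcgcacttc
Peg3, chr7:6730370-6730669, minus strand: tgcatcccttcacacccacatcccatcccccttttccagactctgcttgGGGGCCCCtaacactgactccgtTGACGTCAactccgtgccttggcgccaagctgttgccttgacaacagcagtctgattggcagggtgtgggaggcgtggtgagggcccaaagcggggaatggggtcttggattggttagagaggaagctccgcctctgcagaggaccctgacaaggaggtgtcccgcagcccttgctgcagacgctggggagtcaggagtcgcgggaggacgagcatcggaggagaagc

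In Meg3, TGACGTCA begins 57 bases before the start site and TATAAA 25 bases before it, with a match on the other strand overlapping it. Peg3 holds TGACGTCA at 178 bases and GGGGCCCC at 201 bases before its start. Dlk1 holds TGACG at 106 bases before the start. Ndn holds GGGCGG on the minus strand at bases 2 and 6 downstream, when the start site itself is counted in. Of 32817 promoters of the same length, 1.79% hold TGACGTCA, 20.8% TGACG, 13.6% TATAAA, 1.07% GGGGCCCC, 7.15% CACGTG and 35.6% GGGCGG. The NF-κB consensus is in 4.5% of them and in none of the 16 member windows, which says only that those letters are not in these windows. A match is a description of the sequence, not a bound site.

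Ndn, expressed from the paternal copy at chr7:62346569-62350262 on the plus strand, is a p53-responsive gene studied in stem cell quiescence. It measured 62.0, 62.6, 60.3 and 56.2 CPM in the 20-day PBS libraries and 48.2, 51.3, 42.5 and 42.9 CPM in the IL-1β libraries. All 4 IL-1β libraries lay below all 4 PBS libraries. Ndn fell 1.31-fold, a log2 fold change of -0.39 ± 0.08 (95% interval -0.57 to -0.20, adjusted p = 0.0106), and the call held in all 21 alternative analyses, from -0.42 to -0.35.

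At 1 day Ndn measured 59.5, 54.5 and 61.6 CPM with PBS and 48.1, 51.6 and 52.9 CPM with IL-1β. The groups did not overlap, but the log2 fold change of -0.20 ± 0.09 (95% interval -0.42 to 0.02) did not pass the threshold (adjusted p = 0.265). The difference was negative in each naming set: -0.19 in E060216, -0.22 in 10k, -0.32 in E061316 and -0.44 in the untagged set. The 20-day effect differed from the 1-day effect by -0.18 (95% interval -0.47 to 0.10, adjusted p = 0.478), so a difference between the durations was not detected.

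Ndn was the steadiest of the members, with a gene-wise biological coefficient of variation of 0.0881. Grb10 (0.104), Gnas (0.153), Igf2r (0.22) and Dlk1 (0.286) followed. Meg3 (0.453), Peg3 (0.575), Mest (0.634) and Plagl1 (0.728) varied most. The 95% intervals of these last 4 were all wider than the change seen for Ndn.

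The genes most like Ndn over the 14 libraries were Hmox1 (mean absolute z-score difference 0.321), Tbx1 (0.34) and Bid (0.346). Hmox1 encodes heme oxygenase, Tbx1 a T-box transcription factor and Bid a pro-apoptotic protein. Hmox1 and Bid fell at 20 days, by 1.40 and 0.52 on the log2 scale (adjusted p = 0.038 and 0.0132), while Tbx1 at -0.81 was not called (0.173).

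Grb10, at chr11:11930508-12038683 on the minus strand, measured 188, 217, 160 and 121 CPM in the 20-day PBS libraries and 226, 233, 185 and 191 CPM in the IL-1β libraries. The groups overlapped. The log2 fold change of 0.30 ± 0.10 (95% interval 0.07 to 0.53) did not pass edgeR's threshold (adjusted p = 0.0868), while DESeq2 gave 0.30 with an adjusted p of 0.0349.

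At 1 day Grb10 measured 188, 218 and 163 CPM with PBS and 249, 245 and 166 CPM with IL-1β, with overlapping groups and a log2 fold change of 0.20 ± 0.12 (adjusted p = 0.386). Its values followed the naming sets in each of the 4 groups: the libraries of the tagged sets E060216 and E061316 stood above those of 10k or the untagged set. Within the naming sets the IL-1β difference was 0.29, 0.03, 0.18 and 0.43 in E060216, 10k, E061316 and the untagged set.

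Igf2r, at chr17:12682406-12769664 on the minus strand, measured 26.0, 23.0 and 16.5 CPM with PBS and 22.0, 36.9 and 12.4 CPM with IL-1β at 1 day. The IL-1β libraries spanned the PBS range. Its log2 fold change was 0.05 ± 0.25 (95% interval -0.54 to 0.64, adjusted p = 0.951). At 20 days, where values ran from 14.1 to 23.7 CPM with PBS and from 12.1 to 25.7 CPM with IL-1β, it was -0.10 ± 0.22 (-0.61 to 0.41, adjusted p = 0.871).

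Peg3 and Plagl1 encode zinc finger transcription factors expressed from the paternal copy. Peg3 (chr7:6703892-6730431, minus strand) measured 0.662, 2.08, 1.49 and 0.524 CPM in the 20-day PBS libraries and 2.87, 3.88, 3.47 and 3.60 CPM in the IL-1β libraries. All 4 IL-1β libraries lay above all 4 PBS libraries. The log2 fold change of 1.54 ± 0.61 (95% interval 0.14 to 2.94) did not pass the threshold (adjusted p = 0.157), and no alternative analysis called it (adjusted p from 0.0613 to 0.296).

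At 1 day Peg3 measured 2.59, 0.514 and 0.0481 CPM with PBS, the last from 1 count, and 3.21, 2.64 and 2.19 CPM with IL-1β. Replicate 1 of PBS lay within the IL-1β range, and the other 2 PBS libraries lay below it. The log2 fold change was 1.77 ± 0.76 (adjusted p = 0.22). Without replicate 1 of PBS it was 3.24 with an adjusted p of 0.0371, the 1 alternative of 21 in which it was called. Within each of the 4 naming sets the difference was positive, from 0.95 to 2.30.

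Plagl1 (chr10:13060504-13131694, plus strand) lay between 0.0434 and 1.33 CPM in all 14 libraries. With IL-1β for 20 days it measured 0.144, 1.33, 0.0434 and 0.587 CPM, against 0.706, 0.680, 0.778 and 1.01 CPM with PBS. The IL-1β values spread on both sides of the PBS values. The log2 fold changes were 0.12 ± 0.91 at 1 day (adjusted p = 0.967) and -0.66 ± 0.82 at 20 days (0.73), with 95% intervals of -1.97 to 2.22 and -2.56 to 1.23, so changes of severalfold either way were not detectable.

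Mest, which encodes a protein of the hydrolase fold family, lay between 0.120 and 1.41 CPM. Its log2 fold changes were -0.28 ± 0.82 at 1 day and -0.06 ± 0.70 at 20 days (adjusted p = 0.906 and 0.981), with overlapping groups. Of its exon bases 23.1% are shared with Copg2 on the opposite strand, which measured 56.2 to 106 CPM, so reads there could not be assigned with certainty by a chemistry that does not mark strand.

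Gnas was steady, between 6.87 and 11.5 CPM, with log2 fold changes of 0.06 ± 0.17 at 1 day (95% interval -0.34 to 0.46, adjusted p = 0.898) and 0.18 ± 0.15 at 20 days (-0.16 to 0.53, adjusted p = 0.56). Its groups overlapped at both durations. Exons of Gnas overlap 2 antisense genes of the table, Gm20721 (13.1% of exon bases) and Nespas (8.83%), which had at most 1 and 8 counts in a library. The counting rule for such overlaps is not given in the sources used here, so the Gnas level is uncertain.

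H19, a non-coding RNA from the maternal copy at chr7:142575529-142578143, is known to restrain IGF signalling in stem cells. It had 7, 0 and 4 counts in the PBS libraries for 1 day, 3, 0 and 40 with IL-1β for 1 day, 2, 9, 2 and 1 with PBS for 20 days, and 0, 9, 2 and 6 with IL-1β for 20 days. Replicate 3 of IL-1β for 1 day held 47.1% of its 85 counts, and the 3 libraries at 0 allow up to 3 counts each. The group means were 0.157 ± 0.143 and 0.527 ± 0.811 CPM at 1 day (SD, n = 3 each) and 0.140 ± 0.148 and 0.161 ± 0.145 CPM at 20 days (n = 4 each). A two-sided exact permutation test found no difference at 1 day (p = 0.9, where the smallest possible is 0.1) or at 20 days (p = 0.914, smallest possible 0.0286).

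Other imprinted genes were followed as lists. The shares to set beside these and later lists are those over all tested genes: 4.35% called at 1 day and 7.46% at 20 days. The median log2 fold changes over all tested genes were -0.01 and -0.00031. Of 28 imprinted genes in the members' own clusters, 19 were in the table and 12 were tested. None was called at 1 day by edgeR (1 at an unadjusted p under 0.05 and 0 by DESeq2), and Rian was the 1 called at 20 days. The list's median log2 fold change was -0.31 at 1 day and -0.11 at 20 days.

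Of 42 imprinted genes in other clusters, 35 were tested, with medians of -0.02 and -0.03. At 1 day Gatm, an enzyme of creatine synthesis, rose from 76.6 ± 6.20 to 125 ± 21.9 CPM (SD, n = 3 each), a log2 fold change of 0.70 ± 0.14 (adjusted p = 0.00868). Phlda2, a growth-restraining gene of the placenta, fell at 1 day by 0.64 ± 0.14 (adjusted p = 0.0203) and at 20 days by 0.49 ± 0.12 (0.0268). Its groups did not overlap at either duration, with 10.8 to 13.1 CPM against 15.8 to 22.1 with PBS at 1 day and 10.7 to 12.9 against 14.8 to 19.6 at 20 days. Asb4, an ankyrin repeat protein, rose at 20 days from 2.07 ± 0.464 to 6.91 ± 2.80 CPM (n = 4 each), a log2 fold change of 1.70 ± 0.41 (adjusted p = 0.0215). Of the 21 alternatives, Gatm was called in 17, Phlda2 in 13 at 1 day and 12 at 20 days, and Asb4 in 14. At 1 day Phlda2 was lost in every fit that left out a 1-day library (adjusted p from 0.0595 to 0.111). Gatm was lost without replicate 1 or 2 of PBS, or replicate 1 of IL-1β, for 1 day (0.0509 to 0.059). Phlda2 at 20 days and Asb4 were each lost in several fits that left out a 20-day library.

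**Figure D4:**
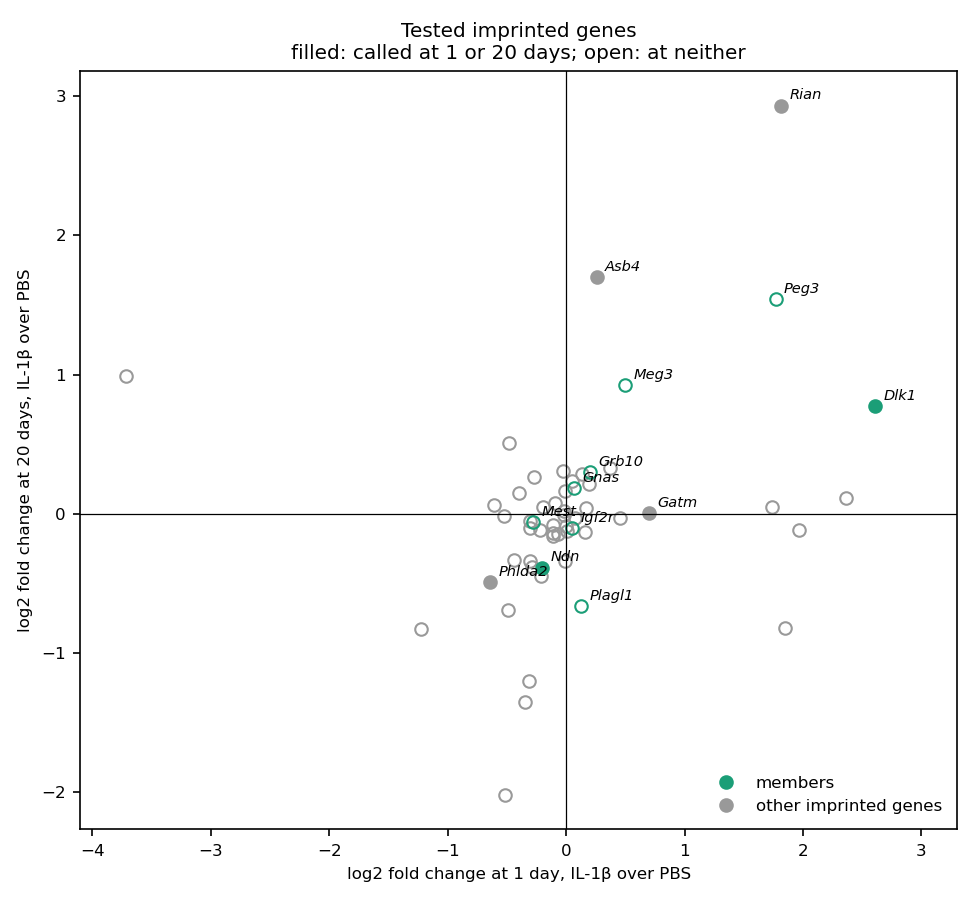
Each circle is a tested imprinted gene, with its log2 fold change of IL-1β over PBS at 1 day (horizontal) and 20 days (vertical), in green for the 9 members and grey for 47 others, filled where called at either duration. Most sit near the centre, while Dlk1 lies far right (2.61, 0.77) and Rian at the top (1.82, 2.93).

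Of the IGF and insulin signalling list, 16 of 22 genes were tested. None was called at 1 day by edgeR (4 at an unadjusted p under 0.05, 0 by DESeq2). At 20 days 1 rose and 3 fell. The adaptor Grb2 rose by 0.26 ± 0.07 on the log2 scale (adjusted p = 0.0268), in 11 of 21 alternatives. Igfbp4, an IGF-binding protein, fell from 227 ± 16.8 to 143 ± 13.04 CPM (n = 4 each), a log2 fold change of -0.67 ± 0.09 (adjusted p = 0.000457), and was called in all 21 alternatives. Igf2bp2, an RNA-binding protein of IGF2 mRNA, fell by 0.59 ± 0.14 (adjusted p = 0.0207), in 15 of 21 alternatives. Igf1, the ligand, fell by 1.77 ± 0.48 (0.0375), chosen for naming after its value was seen. Igf1 was low and its groups overlapped, at 1.09 to 3.97 CPM with PBS and 0.157 to 1.58 CPM with IL-1β. No count of alternatives is given for it.

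A list on imprint maintenance and DNA methylation, which also holds Tet1, Tet2 and Tet3, had 14 tested genes. At 1 day 2 of them rose: Dnmt1, the maintenance DNA methyltransferase, by 0.65 ± 0.11 on the log2 scale (adjusted p = 0.00376), and its partner Uhrf1 by 0.66 ± 0.13 (0.0103). Dnmt1 was called in 20 of 21 alternatives and Uhrf1 in 16, and without the naming set term neither was (adjusted p = 0.0675 and 0.104). At 20 days Dnmt3b fell by 0.29 ± 0.08 (adjusted p = 0.0304), called in 11 of 21 alternatives.

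Among 20 quiescence genes, 1 rose and 3 fell at 1 day, with a median log2 fold change of -0.34, and 2 rose and 3 fell at 20 days, with a median of 0.11. Over all tested genes 4.35% and 7.46% were called, with medians of -0.01 and -0.00031. Egr1, an early response transcription factor, fell at both durations, by 1.07 ± 0.22 and 0.70 ± 0.19 (adjusted p = 0.0122 and 0.0396). Its 1-day groups overlapped, at 162 to 1082 CPM with PBS and 113 to 533 CPM with IL-1β. At 20 days it was called in 11 of 21 alternatives, with adjusted p up to 0.797 without the naming set term. Txnip, a regulator of redox state, fell at 1 day by 0.80 ± 0.15 (0.00609), and Cdkn2c, a cyclin-dependent kinase inhibitor, rose by 0.71 ± 0.14 (0.0103). At 20 days Tek, the angiopoietin receptor, rose by 0.57 ± 0.13 (0.0144), and Hes1, a Notch target, fell by 0.55 ± 0.15 (0.042). The Hes1 groups overlapped, at 5.65 to 10.01 CPM with PBS and 3.16 to 7.43 CPM with IL-1β, and no count of alternatives is given for it. Txnip was called in 19 of 21 alternatives, Cdkn2c in 18 and Tek in 19. Hes1 at 20 days and Egr1 at 1 day were named after their values were seen.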

How the data were processed

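RNA of 14 sorted stem cell libraries was read after SMARTer cDNA amplification and Nextera XT library preparation, single-end on a HiSeq2500, per the labels' protocols. This chemistry does not mark strand. The authors deposited raw counts in a single table by gene symbol, with no normalisation. Their processing notes list, without roles, the build GRCm38.p4 and, among others, STAR 2.4.2a, HTSeq 0.6.1 and DESeq2 1.12.3 (submitters' processing notes). The sources used here do not give the annotation or the strand mode of the counting.

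Tests used edgeR 4.0.16 under R 4.3.3, with TMM factors and filterByExpr at a minimum count of 10. The F-test was the robust quasi-likelihood one, two-sided, with Benjamini-Hochberg adjusted p over 15466 genes and 0.05 as threshold. A single fit of the 14 libraries held terms for naming set and, per duration, for IL-1β (8 residual degrees of freedom). The PBS durations were set against each other in a model of the 4 group means (10 degrees of freedom). The SE is the absolute log2 fold change over the square root of F, and the 95% interval uses 8 degrees of freedom; both are approximate, least reliable for low counts. H19 was tested by an exact permutation over libraries. The script was tested on simulated data.

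No pair of replicates agreed within sampling noise (chi-square per degree of freedom 10.7 to 74.4 over 18 pairs). Counting limits cover counting error only. The alternatives were RLE and upper-quartile factors, DESeq2 1.42.0, no filter, no naming set term, a replicate block, 1 duration at a time, and each library left out. For a gene at 1 duration, the tallies include fits that left out a library of the other duration, which test its call less. The members and gene lists were chosen with earlier results of these data known. The rule for named genes takes all 10 members, per list and comparison up to 3 called genes of smallest p (2 uncalled ones where nothing is called), and the 3 genes most like each called member; not every list gene is named, and some called genes of the quiescence list are not reported here. Rian was followed library by library under this rule.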

Additional observations from a re-analysis of the deposited data

Results flagged for a closer look

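Among the 20 groups of 4 libraries examined (10 genes, 2 groups), 2 held a library far from the other 3, where chance alone gives about 1 in 20. Dlk1 in replicate 3 of IL-1β for 20 days was 2.21 CPM, with a gap to the nearest of the other 3 libraries of 0.898 of the group's range. H19 in replicate 2 of PBS for 20 days was 0.36 CPM (9 counts), with a gap of 0.859 of the range. The IL-1β effect on Dlk1 differed between the durations, with a log2 difference of -1.83 between 20 days and 1 day (adjusted p = 0.0498 by edgeR). That call sat at the threshold and was lost in each of the 14 fits that left out 1 library (adjusted p from 0.0509 to 0.18).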

How the results depend on the processing

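Dlk1 at 1 day, Ndn at 20 days and Rian at 20 days stayed called in all 21 alternatives run for each. DESeq2 called 1398 genes at 1 day, 1809 at 20 days, 1182 for the difference between durations and 10 for PBS duration, and 2 members at 20 days (Ndn and Grb10). Without the naming set term the counts were 290, 525 and 23 for the first 3 comparisons, and with 1 duration only they were 1200 and 750 for the first 2. Upper-quartile factors gave 344 higher and 399 lower genes at 1 day, beside 389 and 283. The difference between durations called 0 members with upper-quartile factors, without the naming set term and with the replicate block.

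Replicate numbers were not treated as pairs in the main fit. Over 7 same-number pairs the correlation of deviations ran from 0.0265 to 0.341 and was over 0.1 in 4. Of 14 libraries, 10 correlated best with their own number. Libraries of the same number also share a naming set, so this check does not settle whether the numbers pair them. With the replicate block 383, 672 and 23 genes were called, the Dlk1 difference between durations had an adjusted p of 0.0998, and Mest at 20 days turned to 0.36.

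Leaving out each library gave 228 to 1244 genes at 1 day, 648 to 1156 at 20 days and 34 to 604 for the difference, and 1 to 2, 1 and 0 members. The 1-day count moved by over 1.5 times without replicate 1 or 2 of PBS (331, 239) or of IL-1β (228, 329) for 1 day, or replicate 4 of PBS for 20 days (1244). The 20-day count did so without replicate 1 or 4 of IL-1β for 20 days (716, 648). The count for the difference did so without replicate 1 or 2 of PBS (78, 38) or of IL-1β (34, 40) for 1 day, replicate 3 of PBS for 20 days (134), or replicates 1 to 4 of IL-1β for 20 days (122, 604, 127, 95). Log2 fold changes that crossed 0 were, at 1 day, Meg3 (-0.35 to 1.50), Plagl1 (-0.40 to 0.96), Mest (-0.55 to 0.0082), Igf2r (-0.26 to 0.27) and Gnas (-0.0847 to 0.166), and at 20 days Mest (-0.44 to 0.73) and Igf2r (-0.29 to 0.0566). For all of these the cause was not tested, beyond fewer samples where libraries were left out. Values within a naming set could not be had for the difference between durations, since each set holds 1 duration. Depth limits H19, Plagl1, Mest and Peg3, which lie near or below a few counts in some libraries.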

Other observations

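Some transcripts of the members' clusters had few or no counts. Igf2, the growth factor gene beside H19 and ligand of Igf2r, had 0 to 12 counts per library. In the Dlk1 and Meg3 cluster, Rtl1 had 0 to 3 counts and Mirg 0 to 4 counts. Airn, the non-coding RNA that overlaps Igf2r on the opposite strand and shares 0 exon bases with it, measured 0.395 to 2.27 CPM (11 to 67 counts).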
